A study of Mus musculus with 9 samples.

Results

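Whole lung of bleomycin-challenged mice was compared with whole lung of saline control mice at day 21. The comparison holds 6 of the 9 libraries of the series, 3 in each group, and was chosen by those labels with no measured value. All groups are wild-type (WT) C57BL/6 mice, and each library is messenger RNA of lung tissue. Control animals were given saline. The other group was challenged with bleomycin, a drug that breaks DNA and is given to rodents to provoke lung fibrosis. Dose, route, age and sex of the mice are not named in the labels or the design text. Nor is it stated whether each sample came from its own animal, so the p-values measure only the spread between samples, which may be technical. The other 3 libraries come from bleomycin-challenged mice that also inhaled lipid nanoparticles carrying Cas9 and a Sting guide, and they enter only as an alternative fit. Of 32671 genes in the table, 19902 passed the count filter and were tested.

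Bleomycin first injures alveolar epithelium and capillary endothelium. Inflammatory cells are recruited, and fibroblasts then deposit matrix in the weeks that follow. Around that scar the lung also changes its metabolism, its airway lining, its vessels and its growth signals, and those programmes are described here in turn. Levels are CPM, the share of a library's counts on a common scale after trimmed-mean scaling, with SD over n = 3 libraries after ±. Fold changes are bleomycin over control on the log2 scale, with SE after ±. A gene was called when its adjusted p in edgeR's quasi-likelihood test was under 0.05. In RNA of whole tissue, fewer cells of a type and less RNA per cell cannot be told apart.

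The 6 libraries held 60074344 to 69404903 counts each. The lung marker Sftpc, a type 2 cell surfactant gene, was at 14318 CPM or more in every control library and at 4510.2 CPM or more in every bleomycin library, and the airway marker Scgb1a1 at 17720.5 and 5143 CPM or more. The first principal component held 69.9% of the variance and separated the groups. Markers of tissues around the lung differed as well. The summed level of 9 measured adipocyte genes was 234 to 297 CPM in control and 7.4 to 35.3 CPM in bleomycin libraries. That of 10 cardiac muscle genes was 874 to 1265 CPM in control and 116 to 406 CPM in bleomycin libraries. For 7 skeletal muscle genes the sum was 34.2 to 51.3 CPM in control and 7.13 to 13.5 CPM in bleomycin libraries. For 6 thymus and lymph node genes it was 22.1 to 28.7 CPM in control and 3.41 to 4.21 CPM in bleomycin libraries. Erythroid genes, which read red blood cells, summed to 10361, 11922 and 9720.3 CPM in control and 16493, 7452 and 1075 CPM in bleomycin libraries, which puts bleomycin 3 far below and bleomycin 1 above every other library. Squamous epithelium markers were low in all libraries but higher in bleomycin lung, at 2.02 to 4.19 CPM in control and 20.3 to 32.7 CPM in bleomycin libraries. Mitochondrially encoded genes took 1.78% to 2.80% of counts in control and 1.49% to 1.58% in bleomycin libraries. The part of these differences in the results was not tested, and most are repeated beside the gene groups they move with.

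A total of 4075 genes (20.5% of those tested) were called higher and 4389 (22.1%) lower in bleomycin lung, 42.5% in either direction. The groups did not overlap in 11326 genes (56.9%). At least 2-fold differences were called for 1988 higher and 2488 lower genes, and at least 4-fold differences for 815 and 945. The median log2 fold change of all genes was -0.01, and it was -0.11 when libraries were scaled by total count only, so small changes are read relative to that shift. Without bleomycin replicate 3 there were 3702 higher and 4196 lower calls. Shares of genes called in the lists below are read against the 20.5% and 22.1% of all genes. The lists and their members were chosen with earlier results of these data known, and that choice can itself raise these shares.

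**Figure D1:**
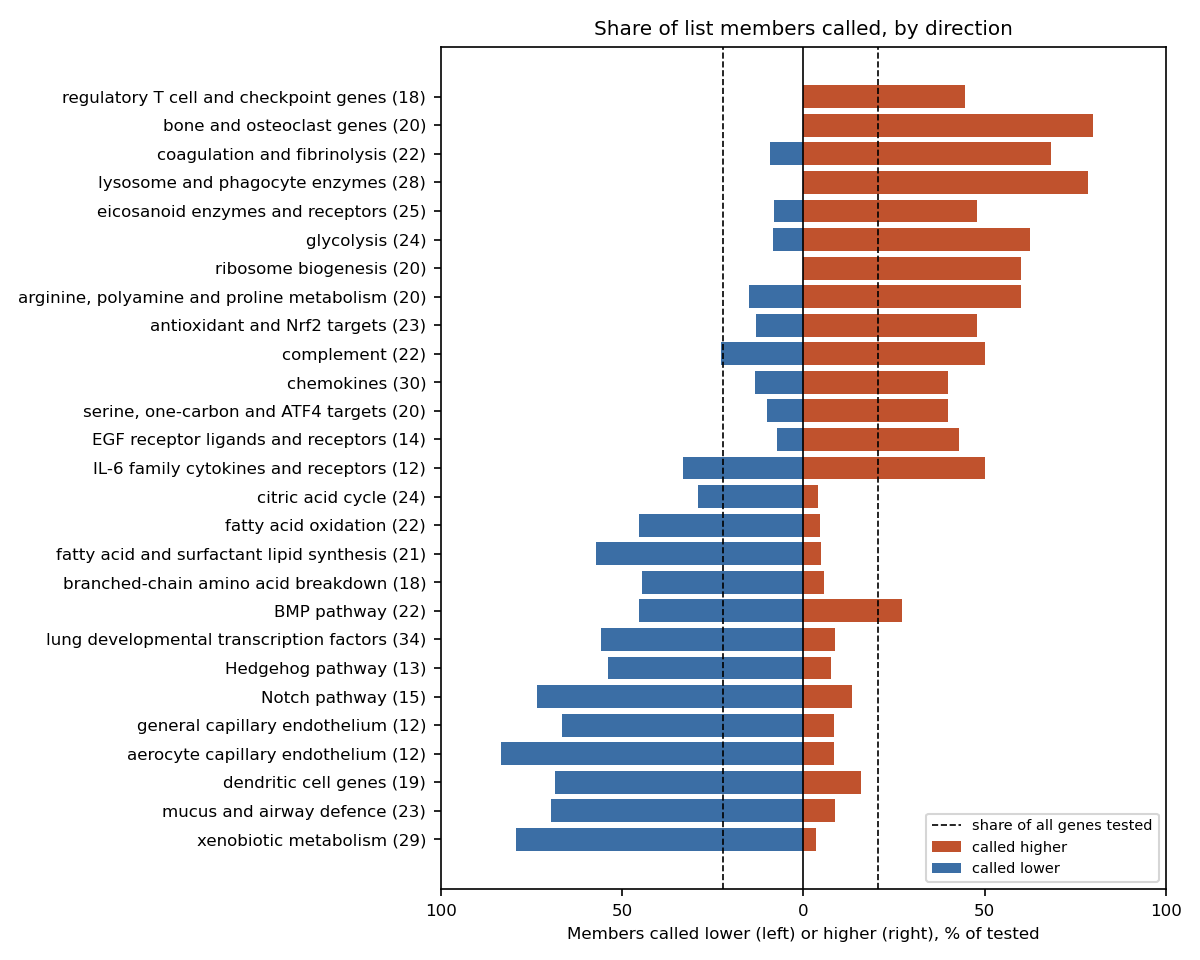
Percent of tested members called lower (left, blue) or higher (right, orange) in bleomycin against control lung for 27 gene lists, with the number tested in parentheses. Dashed lines mark the shares of all genes tested, 22.1% lower and 20.5% higher. Xenobiotic metabolism reached 23 of 29 members lower, and bone and osteoclast genes 16 of 20 higher.

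The largest changes were described for genes whose values did not overlap between the groups, so the lack of overlap in this paragraph is part of how they were picked. Hmga2, a chromatin protein of embryonic and tumour cells, was at 0.0944, 0.102 and 0.0417 CPM in the control and 7.19, 7.0 and 7.0 CPM in the bleomycin libraries (log2 fold change 6.45 ± 0.33, adjusted p = 4.8e-06). Etv4, a growth factor-induced transcription factor, was at 0.063, 0.337 and 0.556 CPM in control and 17.4, 18.6 and 20.7 CPM in bleomycin libraries (log2 fold change 5.86 ± 0.51, adjusted p = 4.7e-05). Control values of both genes were near 0 in all 3 libraries. Also among the 25 largest rises were Ackr1, a chemokine-binding receptor of venules and red cells (from 0.565 ± 0.10 to 29.3 ± 12.8 CPM), Serpinb9b, a protease inhibitor (from 1.15 ± 0.49 to 76.4 ± 5.3 CPM), Fst, the follistatin that binds activins (from 4.56 ± 0.526 to 211 ± 87.9 CPM), and Nrip3 (from 0.30 ± 0.163 to 18 ± 4.35 CPM). Mmp10, a matrix metalloproteinase, was without a count in all 3 control libraries and was at least 677-fold higher in bleomycin lung, taking 3 counts in all control libraries together as the floor. Among the 25 largest falls, Colq, the collagen-like tail of acetylcholinesterase, fell (log2 fold change -6.00 ± 0.28, adjusted p = 3.4e-06), from 57.2 ± 12.8 to 0.892 ± 0.275 CPM. Chad, a cartilage matrix protein, went from 70 ± 18.2 to 2.47 ± 1.45 CPM, Acoxl from 58.9 ± 12.6 to 2.85 ± 0.643 CPM, Ankrd63 from 34.2 ± 7.75 to 0.542 ± 0.0773 CPM and Gzma, a granule protease of killer cells, from 27.5 ± 3.43 to 1.02 ± 0.126 CPM. Etv4 (6.53 without control replicate 3) moved over 1.5 times in fold, given as log2, without the library named.

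**Figure D2:**
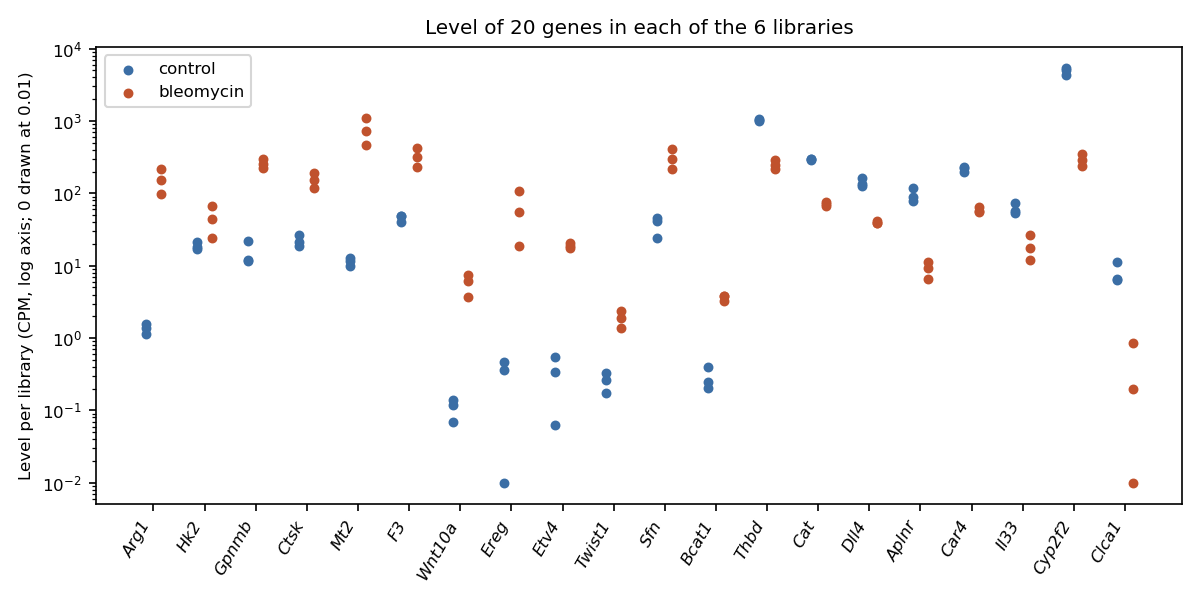
Level of 20 genes in each of the 6 libraries (CPM on a log axis; a value of 0 is drawn at 0.01 CPM), control in blue and bleomycin in orange. The 12 genes on the left, from Arg1 to Bcat1, lie higher in all 3 bleomycin libraries, and the 8 on the right, from Thbd to Clca1, lie lower in all 3.

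Losses of transcripts were concentrated in fewer genes than gains. The 12 largest losses in mean CPM made up 27.6% of all CPM lost by genes with a lower mean, and the 12 largest gains 13.6% of all CPM gained. The losses were led by Scgb1a1, the club cell secretoglobin (from 20491 ± 2534 to 5205 ± 54.6 CPM), Sftpc, Cyp2f2, a club cell cytochrome P450 (from 4929 ± 572 to 289 ± 56.3 CPM), and Cbr2, a lung carbonyl reductase (from 4989 ± 875 to 701 ± 190.5 CPM). Gsn, the actin-severing gelsolin, fell from 5851 ± 1291 to 1978 ± 147 CPM, Inmt, a methyltransferase of resting lung fibroblasts, from 2099 ± 431 to 285 ± 81.7 CPM, and Epas1, the hypoxia factor of lung endothelium, from 2970.2 ± 289 to 1524 ± 16.2 CPM. Lyz2, the macrophage and type 2 cell lysozyme, fell from 5438 ± 534 to 2711 ± 22.5 CPM, in counts that its copy Lyz1 could share. Beside matrix genes the gains held Apoe, a lipid carrier of macrophages (from 791 ± 149 to 3062 ± 509 CPM) and Ctsd, a lysosomal protease (from 707 ± 115 to 2548 ± 14.2 CPM). Scgb1a1 (in 1 of 18 alternatives, adjusted p up to 0.058) missed the threshold in those alternatives.

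**Figure D3:**
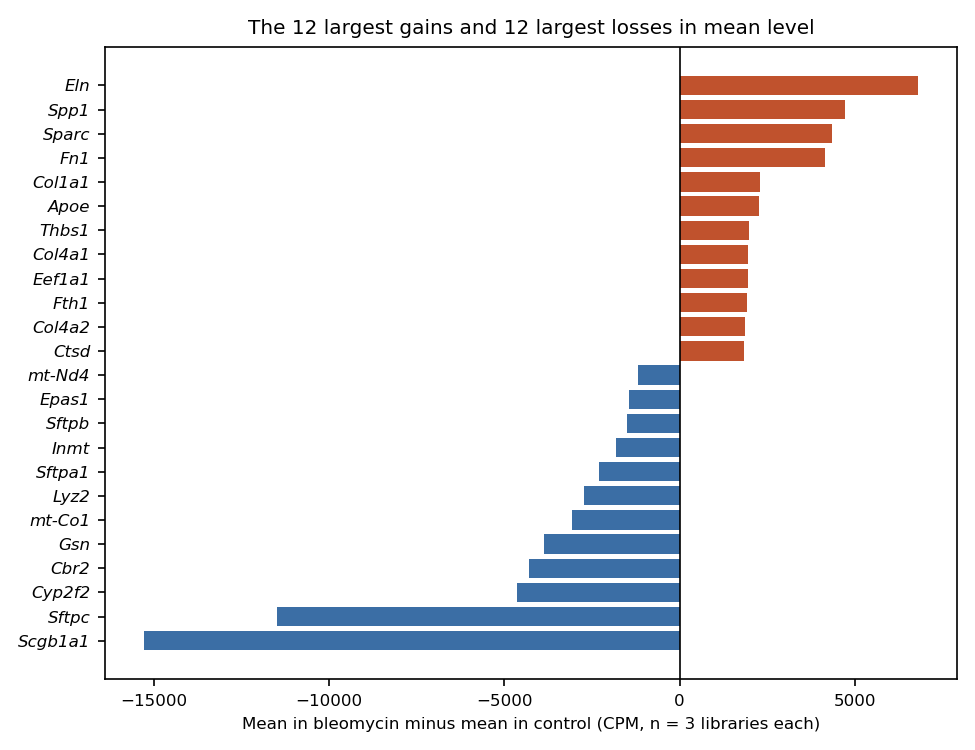
Difference between the mean of 3 bleomycin and the mean of 3 control libraries (CPM) for the 12 genes with the largest gain (orange) and the 12 with the largest loss (blue). Scgb1a1 and Sftpc show the largest losses and Eln the largest gain.

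Genes of the cytosolic ribosome rose nearly as a block. Of 81 ribosomal protein genes tested, 74 were called higher and 0 lower, with a median of 0.66, in both the large subunit (43 of 49) and the small subunit (31 of 32). The family summed to 21749.6, 26968 and 23128 CPM in control and 40902, 38931 and 36257 CPM in bleomycin libraries, so the lowest bleomycin library stood above the highest control library. The 7 genes not called were Rpl3l, a muscle-restricted copy, and Rpl10, Rpl22, Rpl35a, Rpl17, Rpl7a and Rps27, named here because of that outcome. Rps2 rose from 609.9 ± 103 to 1305 ± 104 CPM, Rpl41 from 361 ± 58.5 to 776 ± 84.2 CPM and Rpl10a from 304 ± 47.4 to 646 ± 8.2 CPM. Many processed copies of these genes exist, and reads shared with them could be counted on either. Of 152 ribosomal pseudogenes tested, 61 were called higher and 0 lower, with a median of 0.69. Cytosolic ribosomal proteins (0 lower, against 1 without bleomycin 3 and 1 in 5 of the other alternatives) had a count that moved over 1.5 times. The 74 called higher became 54 to 77 when 1 library was left out and 51 to 76 in the other alternatives. With a minimum of 2-fold in the test, 0 were called higher.

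Ribosomal protein messages share a start that is rich in pyrimidines, the terminal oligopyrimidine tract, which couples their translation to growth signals. A search for a C within 3 bases of the annotated start followed by at least 4 more pyrimidines on the transcribed strand, added after the ribosomal genes were seen to rise, matched 25 of the 60 ribosomal protein genes with a RefSeq promoter window (26 of 72 windows, 36.1%), against 11.5% of all 32851 windows. In the other gene lists searched, the tract stood in 4.35% (antioxidant) to 16.7% (lysosome) of windows. Matching starts are shown for 5 ribosomal genes, from 20 bases before the start (RefSeq, GRCm38.p6), with the tract in capitals.
Rpl31 (chr1:39367831-39367865, + strand): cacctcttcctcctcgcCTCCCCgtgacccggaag
Rpl13a (chr7:45128731-45128765, - strand): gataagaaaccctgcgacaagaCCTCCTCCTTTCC
Rpl35 (chr2:39005117-39005151, - strand): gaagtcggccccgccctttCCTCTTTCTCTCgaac
Rpl12 (chr2:32961692-32961726, + strand): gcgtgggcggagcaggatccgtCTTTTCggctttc
Rps15a (chr7:118116133-118116167, - strand): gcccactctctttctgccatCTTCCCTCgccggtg

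Factors that build ribosomes moved the same way. Of 20 ribosome biogenesis genes, 12 were higher and 0 lower (median 0.61). Myc, a transcription factor that drives ribosome production, was at 7.62, 8.44 and 6.41 CPM in control and 116, 87.7 and 63.4 CPM in bleomycin libraries (log2 fold change 3.57 ± 0.24, adjusted p = 1.4e-05). Gnl3, the nucleolar protein nucleostemin, rose from 13.9 ± 2.25 to 42.5 ± 11.7 CPM. The mitochondrial ribosome did not rise as a family. Of 78 mitochondrial ribosomal proteins 15 were higher and 7 lower with a median of 0.15, shares that do not exceed those of all genes. Proteasome subunits, which degrade tagged proteins, had 22 of 38 higher and 3 lower (median 0.44). Psmd8 rose from 107 ± 10.7 to 266 ± 20.8 CPM, whereas the immunoproteasome subunits Psmb9 (from 51.4 ± 5.91 to 16 ± 0.712 CPM) and Psmb10 (from 91.3 ± 11.9 to 54.2 ± 1.93 CPM) fell. Ribosome biogenesis (12 higher, against 7 without bleomycin 1 or bleomycin 2 and 4 by limma on log2(FPKM + 1), no filter), mitochondrial ribosomal proteins (15 higher, against 6 without bleomycin 2, 8 without bleomycin 1 or control 1, 9 without control 3 and 29 without control 2), mitochondrial ribosomal proteins (7 lower, against 4 without bleomycin 1 or bleomycin 2 and 12 to 13 in 4 of the other alternatives) and proteasome subunits (22 higher, against 8 without bleomycin 2, 11 without bleomycin 1 or control 1 and 12 without control 3) had counts that moved over 1.5 times.

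**Figure D4:**
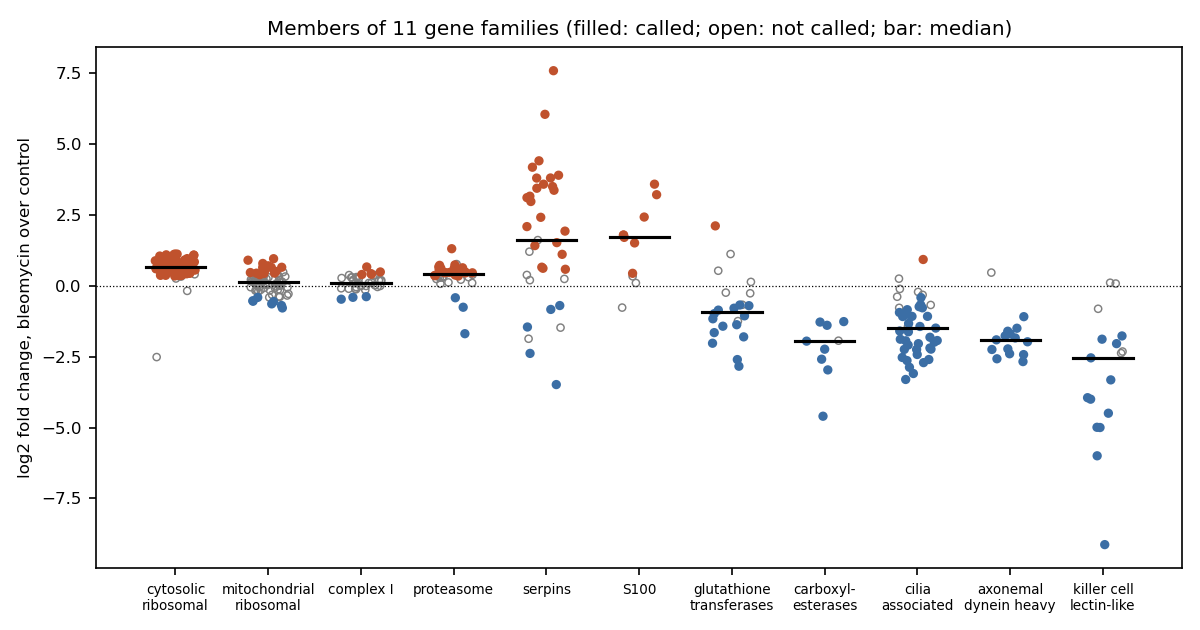
Log2 fold change of bleomycin over control for each tested member of 11 gene families (filled, called; open, not called; bar, median). Cytosolic ribosomal proteins lie in a narrow band above 0 except for Rpl22 and the muscle copy Rpl3l, while mitochondrial ribosomal proteins and complex I straddle 0.

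Lysosomes digest what phagocytes and other cells take up, and their genes rose broadly. Of 28 lysosome and phagocyte enzyme genes 22 were higher and 0 lower, with a median of 0.93 and a summed level of 6188, 7598 and 6154 CPM in control and 14826, 14154 and 13754 CPM in bleomycin libraries. Gpnmb, a glycoprotein of lipid-loaded macrophages, was at 12, 21.9 and 11.7 CPM in control and 223, 255 and 299 CPM in bleomycin libraries (log2 fold change 4.09 ± 0.27, adjusted p = 1.4e-05). Ctsk, a collagen-cleaving cathepsin, was at 21.3, 26.6 and 18.5 CPM in control and 188, 151 and 118 CPM in bleomycin libraries (log2 fold change 2.78 ± 0.21, adjusted p = 2.3e-05). Both were far above the control range in every bleomycin library. Ctss went from 98.8 ± 3.68 to 679.7 ± 37.2 CPM, Lgmn, the asparagine-specific protease legumain, from 145 ± 22.8 to 679 ± 63.6 CPM and Cd68, a macrophage lysosomal membrane protein, from 30.2 ± 2.86 to 152 ± 2.99 CPM. The V-type ATPase, which acidifies the lysosome, had 7 of 20 subunits higher and 3 lower. Subunits of restricted use moved in opposite directions. The macrophage subunit Atp6v0d2 rose from 11.2 ± 2.62 to 45.5 ± 1.74 CPM, and Atp6v1b1, a subunit of acid-secreting epithelial cells, fell from 8.94 ± 1.91 to 0.321 ± 0.297 CPM. Lysosome and phagocyte enzymes (0 lower, against 1 in 3 of the other alternatives) and V-type ATPase subunits (7 higher, against 3 without bleomycin 2 or control 1 and 4 without bleomycin 1) had counts that moved over 1.5 times. Atp6v1b1 (-5.53 without bleomycin replicate 2) moved over 1.5 times in fold, given as log2, without the library named.

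The CLEAR element, read by the lysosomal regulator TFEB, was searched on both strands as TCACGTG, which overlaps the E-box CACGTG. The longer motif stood in 7 of the 23 lysosomal genes with a RefSeq promoter window (7 of 30 windows, 23.3%), against 3.77% of all windows, and the E-box in 26.7% against 7.15%. In the other gene lists searched, the longer motif stood in 0% (antioxidant) to 15.8% (circadian clock) of windows. The E-box stood in 0% (antioxidant) to 31.6% (circadian clock). Of the matching lysosomal genes, 4 that rose are shown with the element in capitals (RefSeq, GRCm38.p6).
Lgmn (chr12:102439121-102439157, - strand): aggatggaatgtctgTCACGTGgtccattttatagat
Ctsd (chr7:142387904-142387940, - strand): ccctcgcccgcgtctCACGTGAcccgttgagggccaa
Gla (chrX:134601178-134601214, - strand): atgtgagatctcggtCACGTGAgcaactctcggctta
Ctsa (chr2:164833746-164833772, + strand): caatgagcaaactgtCACGTGAtgcag

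Metal-binding and redox genes diverged. Of 23 antioxidant genes and targets of Nrf2, the factor that switches on defence against oxidants, 11 were higher and 3 lower (median 0.49). Mt2, a metallothionein that binds zinc and copper, was at 9.76, 12.9 and 11.5 CPM in control and 1094, 722 and 469 CPM in bleomycin libraries (log2 fold change 6.06 ± 0.33, adjusted p = 5.9e-06), and Mt1 went from 36.1 ± 3.77 to 919 ± 343 CPM. Hmox1, which breaks down heme, was at 39.5, 48 and 35.5 CPM in control and 1497, 734 and 110.2 CPM in bleomycin libraries (log2 fold change 4.25 ± 0.76, adjusted p = 0.0022). Every bleomycin value lay above the control range, and it was highest in bleomycin 1 and lowest in bleomycin 3, as was the erythroid sum. Slc7a11, the cystine importer, went from 0.907 ± 0.0556 to 12.3 ± 8.59 CPM, Srxn1 from 32.4 ± 6.78 to 129 ± 38.3 CPM and Txnrd1, a thioredoxin reductase, from 98.3 ± 8.8 to 309 ± 122 CPM. Nqo1, the target most often used to read Nrf2, was not called (from 8.01 ± 2.23 to 10.6 ± 1.7 CPM, adjusted p = 0.18). Cat, the peroxisomal catalase, was at 298, 297 and 290.4 CPM in control and 67.9, 72.3 and 77.1 CPM in bleomycin libraries (log2 fold change -2.03 ± 0.11, adjusted p = 5.7e-06), and Sod3, the secreted superoxide dismutase, fell from 753 ± 90.3 to 339.8 ± 16 CPM. Of 21 iron genes 8 were higher and 5 lower. The exporter Slc40a1 rose from 11.6 ± 2.14 to 23.5 ± 4.8 CPM and Cd163, the haemoglobin scavenger receptor, from 11.3 ± 1.54 to 50.4 ± 6.98 CPM, while the transferrin receptor Tfrc fell from 53 ± 10.3 to 22.2 ± 1.68 CPM. Iron handling (5 lower, against 3 without bleomycin 2 and 3 in the fit of all 9 libraries) had a count that moved over 1.5 times. Hmox1 (3.37 without bleomycin replicate 1) and Slc7a11 (3.10 without bleomycin replicate 1) moved over 1.5 times in fold, given as log2, without the library named. Slc7a11 (in 1 of 16 alternatives, adjusted p up to 0.058) and Slc40a1 (in 1 of 18 alternatives, adjusted p up to 0.054) missed the threshold in those alternatives. Nqo1 (without control 2 at a log2 fold change of 0.66, adjusted p = 0.023), not called above, passed the threshold in that alternative.

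An antioxidant response element core, searched on both strands as TGACNNNGC, stood in 8 of the 18 antioxidant genes with a RefSeq window (8 of 23 windows, 34.8%), against 12.4% of all windows. In the other gene lists searched, the core stood in 0% (ribosome biogenesis) to 22.4% (cilia) of windows. It is shown in capitals for Mt2, Txnrd1 and G6pdx, which rose, and for Sod1, which fell (RefSeq, GRCm38.p6). In Mt2 the match overlaps an AP-1 motif (TGANTCA).
Mt2 (chr8:94172524-94172562, + strand): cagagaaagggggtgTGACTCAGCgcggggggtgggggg
Txnrd1 (chr10:82859099-82859137, + strand): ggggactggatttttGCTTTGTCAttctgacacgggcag
G6pdx (chrX:74428914-74428952, - strand): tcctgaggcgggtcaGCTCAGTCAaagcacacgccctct
Sod1 (chr16:90220691-90220729, + strand): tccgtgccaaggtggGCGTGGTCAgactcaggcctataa

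Genes of glycolysis rose in most cases. Of 24 glycolytic genes 15 were higher and 2 lower, with a median of 0.61 and a summed level of 2988, 3752 and 2928 CPM in control and 6494, 5978 and 5569 CPM in bleomycin libraries. Slc2a1, the GLUT1 glucose transporter, was at 31.9, 40 and 27.1 CPM in control and 149, 104 and 69.5 CPM in bleomycin libraries (log2 fold change 1.71 ± 0.27, adjusted p = 0.0011). Pkm, the pyruvate kinase, rose from 486 ± 76.3 to 1440.0 ± 129 CPM, and Ldha, which makes lactate, from 328 ± 53.1 to 649 ± 92.4 CPM. The 2 that fell were Ldhb (log2 fold change -1.85 ± 0.13, adjusted p = 2.0e-05), the isoform that favours lactate use, and the muscle isoform Pfkm. Gapdh and Eno1 also passed the test, but processed copies of both exist. Slc16a3, the lactate exporter, rose from 19.9 ± 4.09 to 43.6 ± 14.4 CPM. Hypoxia genes were mixed, with 8 of 17 higher and 3 lower. Hif1a rose from 42 ± 16.5 to 140.1 ± 53.7 CPM as Epas1 fell, and Ddit4, a stress-induced inhibitor of mTOR, rose from 28.7 ± 3.79 to 197 ± 51.5 CPM. Car9 and Egln3, both textbook hypoxia targets, were not called (log2 fold changes 0.34 ± 0.32 and -0.17 ± 0.27, adjusted p = 0.42 and 0.64). Glycolysis (2 lower, against 1 to 4 in 2 of the other alternatives) and hypoxia targets and factors (8 higher, against 4 in the fit of all 9 libraries) had counts that moved over 1.5 times. Pfkm (in 1 of 18 alternatives, adjusted p up to 0.13) missed the threshold in those alternatives.

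Mitochondrial fuel pathways were lower in most members that changed. Fatty acid oxidation had 1 of 22 genes higher and 10 lower (median -0.37), branched-chain amino acid breakdown 1 of 18 higher and 8 lower (median -0.35), and the citric acid cycle 1 of 24 higher and 7 lower (median -0.12). The 1 rise in each of the first and last of these, Pdk4 and Mdh2, was named for being alone. Acadm, the medium-chain acyl-CoA dehydrogenase, fell from 80.2 ± 1.17 to 43.9 ± 2.41 CPM, and Hadh, a later step of the same spiral, from 101 ± 15.2 to 43.7 ± 6.7 CPM. Idh2, a mitochondrial isocitrate dehydrogenase, fell from 175 ± 31.6 to 92.1 ± 4.29 CPM. Pcca, which carboxylates propionyl-CoA, was at 38.6, 40.4 and 29.3 CPM in control and 11, 12.7 and 13.5 CPM in bleomycin libraries (log2 fold change -1.54 ± 0.17, adjusted p = 1.5e-04). The single rise among branched-chain genes was Bcat1, the cytosolic transaminase, at 0.393, 0.205 and 0.25 CPM in control and 3.26, 3.82 and 3.81 CPM in bleomycin libraries (log2 fold change 3.68 ± 0.33, adjusted p = 5.9e-05). Its mitochondrial partner Bcat2 was not called (log2 fold change -0.09 ± 0.14). Complex I of the respiratory chain is built from subunits encoded in the nucleus and in the mitochondrial genome. Of its nuclear-encoded subunits 5 of 37 were higher and 3 lower. Of the 7 mitochondrially encoded subunits 0 were higher and 5 lower, among them mt-Nd2 (log2 fold change -1.38) and mt-Nd4 (-1.03). Mitochondrially encoded genes made up 1.78% to 2.80% of counts in control and 1.49% to 1.58% in bleomycin libraries, and the part of this share in their falls was not tested. Markers of fat and heart, tissues rich in these enzymes, were lower in the same libraries, with summed adipocyte markers of 234 to 297 CPM in control and 7.4 to 35.3 CPM in bleomycin libraries and cardiac markers of 874 to 1265 CPM in control and 116 to 406 CPM in bleomycin libraries. Their part in these falls was not tested. A fit without 77 genes of the other-tissue lists gave 4066 higher and 4374 lower genes. That fit leaves out only those genes, so it cannot show what fat or heart adds to the rest. Fatty acid oxidation (1 higher, against 2 without control 2 and 0 in 2 of the other alternatives), fatty acid oxidation (10 lower, against 6 without bleomycin 1 or bleomycin 2), branched-chain amino acid breakdown (1 higher, against 0 in 2 of the other alternatives), citric acid cycle (1 higher, against 0 without bleomycin 1, bleomycin 2, bleomycin 3, control 1 or control 3, 2 without control 2 and 0 in the fit of all 9 libraries), citric acid cycle (7 lower, against 3 without bleomycin 2, 4 without bleomycin 3 or control 1 and 4 with no count filter), complex I subunits (5 higher, against 0 without bleomycin 1, bleomycin 2, control 1 or control 3, 14 without control 2 and 3 in 4 of the other alternatives) and complex I subunits (3 lower, against 0 without bleomycin 2, 1 without bleomycin 1, bleomycin 3 or control 1 and 1 with the replicate block) had counts that moved over 1.5 times. Pdk4 (in 2 of 18 alternatives, adjusted p up to 0.34) and Mdh2 (in 6 of 18 alternatives, adjusted p up to 0.099, among them without bleomycin 1, bleomycin 2, bleomycin 3, control 1, control 3) missed the threshold in those alternatives.

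Lipid synthesis, which in lung supplies surfactant, had 1 of 21 genes higher and 12 lower (median -0.61). Fasn, the fatty acid synthase, fell from 564 ± 137 to 295 ± 16.9 CPM, Lpcat1, which makes surfactant phosphatidylcholine, from 415 ± 74.2 to 239 ± 8.82 CPM and Abca3, the lamellar body lipid pump, from 531 ± 70.6 to 278 ± 14 CPM. The 1 that rose was Scd2, named for being alone. Several of these enzymes are also made by fat cells, whose markers fell as given above. Fatty acid and surfactant lipid synthesis (1 higher, against 0 without bleomycin 2, bleomycin 3 or control 1, 3 without control 2 and 0 by limma on log2(FPKM + 1), no filter) had a count that moved over 1.5 times. Scd2 (in 4 of 18 alternatives, adjusted p up to 0.078, among them without bleomycin 2, bleomycin 3, control 1) missed the threshold in those alternatives.

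Genes that route amino acids to proline, polyamines and serine rose more often than they fell. Of 20 arginine, polyamine and proline genes 12 were higher and 3 lower (median 0.64). Arg1, the arginase of alternatively activated macrophages, was at 1.54, 1.39 and 1.13 CPM in control and 216, 152 and 96.7 CPM in bleomycin libraries (log2 fold change 6.84 ± 0.34, adjusted p = 3.9e-06). Slc7a1, an arginine transporter, rose from 21.2 ± 2.35 to 55.3 ± 14.9 CPM, Srm, the spermidine synthase, from 23.7 ± 3.67 to 48.6 ± 6.04 CPM, and Pycr1, the last step to proline, from 2.97 ± 0.962 to 6.31 ± 1.58 CPM. Prodh, which oxidises proline, fell from 24.4 ± 4.08 to 17 ± 0.629 CPM. Among 20 serine, one-carbon and ATF4 target genes 8 were higher and 2 lower. Psat1, of serine synthesis, was at 13.5, 18.4 and 13.1 CPM in control and 64.7, 55.6 and 54.4 CPM in bleomycin libraries (log2 fold change 1.96 ± 0.17, adjusted p = 4.6e-05), and Phgdh, the step before it, rose from 12.4 ± 1.29 to 24.7 ± 1.25 CPM. Mthfd2, a mitochondrial folate enzyme of growing cells, rose from 5.88 ± 0.507 to 17.9 ± 3.24 CPM. Trib3, a stress-induced target of ATF4, was not called (log2 fold change 0.26 ± 0.18). Arginine, polyamine and proline metabolism (12 higher, against 7 by limma on log2(FPKM + 1), no filter) had a count that moved over 1.5 times. Pycr1 (in 2 of 18 alternatives, adjusted p up to 0.083, among them without bleomycin 3) and Prodh (in 5 of 18 alternatives, adjusted p up to 0.081, among them without bleomycin 1, bleomycin 2, bleomycin 3, control 3) missed the threshold in those alternatives. Trib3 (without control 2 at a log2 fold change of 0.42, adjusted p = 0.047), not called above, passed the threshold in that alternative.

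The enzymes that metabolise inhaled and circulating chemicals fell in most cases. Of 29 xenobiotic metabolism genes 23 were lower and 1 higher (median -1.53), from a summed level of 12382, 14431 and 13181 CPM in control and 3371, 3666 and 3996 CPM in bleomycin libraries. Cyp2f2 was at 4309.6, 5438 and 5039 CPM in control and 235, 285 and 348 CPM in bleomycin libraries (log2 fold change -4.09 ± 0.19, adjusted p = 3.7e-06). Cyp4b1, another lung P450, went from 1004 ± 128 to 216 ± 16.2 CPM, Cyp1a1, the target of the aryl hydrocarbon receptor, from 62.2 ± 19.8 to 9.5 ± 2.67 CPM, and Aox3, an aldehyde oxidase, from 139.7 ± 6.1 to 12 ± 2.16 CPM. Every one of these lay below the control range in all 3 bleomycin libraries. Fmo2, the main lung flavin monooxygenase, was an exception (from 778 ± 176 to 788 ± 147 CPM, adjusted p = 0.95), and Fmo1 fell from 509 ± 51 to 96.1 ± 26.3 CPM. The rise was that of Cyp26b1, which degrades retinoic acid and was named for being alone. By family, 8 of 9 carboxylesterases were lower and 0 higher, 14 of 22 glutathione S-transferases lower and 1 higher, and 17 of 38 P450 genes lower and 6 higher. Gstm1 fell from 814 ± 169 to 234 ± 38.3 CPM and Ces1d, also a fat cell and liver enzyme, from 761 ± 77.5 to 162 ± 3.99 CPM. Ces1 genes resemble each other closely, and their counts are uncertain. Xenobiotic metabolism (1 higher, against 0 in the fit of all 9 libraries) and glutathione S-transferases (1 higher, against 2 without bleomycin 1 or control 2 and 0 to 3 in 8 of the other alternatives) had counts that moved over 1.5 times. Cyp26b1 (in 1 of 18 alternatives, adjusted p up to 0.15) missed the threshold in those alternatives.

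The airway lining lost transcripts of both its secretory and its ciliated cells. Of 23 mucus and airway defence genes 16 were lower and 2 higher (median -1.74). Muc5b, the main gel mucin of the lung, was at 134, 302 and 193 CPM in control and 27.5, 28.1 and 32.6 CPM in bleomycin libraries (log2 fold change -2.83 ± 0.27, adjusted p = 8.1e-05). Clca1, a goblet cell protease, was at 6.58, 11.2 and 6.33 CPM in control and 0, 0.20 and 0.858 CPM in bleomycin libraries (log2 fold change -4.49 ± 0.87, adjusted p = 0.0033). Its bleomycin values were below the control range but differed among themselves. Pigr, which carries IgA into the airway, fell from 81.4 ± 20.4 to 16 ± 3.67 CPM and Bpifb1, an airway defence protein, from 259 ± 88.9 to 25.6 ± 10.1 CPM. Against this trend the chitinase-like Chil4 rose (log2 fold change 2.89 ± 0.49, adjusted p = 0.0017). Motile cilia are moved by dynein arms on an axoneme. Of 15 axonemal dynein heavy chains 14 were lower and 0 higher (median -1.90), and of 43 cilia and flagella associated proteins 34 were lower and 1 higher (median -1.49). The dynein genes summed to 230.5, 248 and 284 CPM in control and 57.2, 59 and 69.1 CPM in bleomycin libraries. Dnah5, an outer arm motor, fell from 38.1 ± 10.9 to 7.1 ± 0.474 CPM and Cfap161 from 16.9 ± 1.68 to 2.58 ± 0.0328 CPM. Foxj1, the ciliary master factor, fell from 146 ± 29.8 to 54 ± 5.59 CPM, less on the log2 scale than these motors (-1.43 against -2.42 for Dnah5), a difference that was not tested. Mucus and airway defence (2 higher, against 0 to 1 in 4 of the other alternatives), axonemal dynein heavy chains (14 lower, against 9 in 2 of the other alternatives) and cilia and flagella associated proteins (1 higher, against 0 by limma on log2(FPKM + 1), no filter) had counts that moved over 1.5 times. Clca1 (-6.27 without bleomycin replicate 3) moved over 1.5 times in fold, given as log2, without the library named. Chil4 (in 1 of 15 alternatives, adjusted p up to 0.1) missed the threshold in those alternatives.

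Ion and water transporters, which keep the alveolus dry, moved in both directions (6 of 22 higher, 6 lower). These shares, 27.3% each, were not far above the 20.5% and 22.1% of all genes. The epithelial sodium channel subunits Scnn1a (from 480.5 ± 68.3 to 1383 ± 138 CPM) and Scnn1g (from 169 ± 17.5 to 397 ± 7.59 CPM) rose and Scnn1b did not pass (from 163 ± 14.8 to 195 ± 1.72 CPM). Aqp5, the type 1 cell water channel, rose from 398 ± 69.9 to 623 ± 30.2 CPM, whereas Aqp4 fell from 7.87 ± 3.02 to 2.73 ± 0.463 CPM and the chloride channel Cftr from 6.82 ± 2.45 to 1.58 ± 0.338 CPM. Basal cell genes had 3 of 11 higher (27.3%) and 1 lower (9.09%). Sfn, the 14-3-3 sigma protein of stressed epithelium, was at 45.4, 41.5 and 24.2 CPM in control and 416, 301 and 215 CPM in bleomycin libraries (log2 fold change 3.07 ± 0.30, adjusted p = 9.0e-05), while Trp63 (from 0.998 ± 0.233 to 1.02 ± 0.478 CPM) and Krt5 (from 1.45 ± 0.477 to 1.03 ± 0.54 CPM), which define basal cells, did not pass. The squamous marker sum, given above, moved with Sfn, and its part was not tested. Basal cell genes (1 lower, against 0 in the fit of all 9 libraries) had a count that moved over 1.5 times. Scnn1b (without control 2 at a log2 fold change of 0.34, adjusted p = 0.012), not called above, passed the threshold in that alternative.

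Several growth factor and cytokine ligands were among the genes that rose. EGF receptor ligands and receptors had 6 of 14 members higher and 1 lower. Ereg, an EGF receptor ligand, was at 0.362, 0 and 0.473 CPM in control and 109, 55.8 and 19 CPM in bleomycin libraries (log2 fold change 7.77 ± 0.91, adjusted p = 2.3e-04), Areg, a ligand of the same receptor, went from 2.8 ± 0.207 to 43.9 ± 31.7 CPM and Hbegf from 46.9 ± 3.92 to 176 ± 48.1 CPM. The receptor Egfr rose from 26 ± 2.67 to 45.2 ± 9.42 CPM and Erbb3 fell from 62.6 ± 9.22 to 41.1 ± 2.24 CPM. In the IL-6 family, 6 of 12 were higher and 4 lower. The ligands Osm (from 1.03 ± 0.348 to 15.4 ± 6.3 CPM) and Lif (from 5.34 ± 0.699 to 46.8 ± 24 CPM) and the inhibitor Socs3, induced by these cytokines (from 45 ± 6.57 to 371 ± 176 CPM), rose. Il11, a fibroblast-activating member, was at 0.299, 0.688 and 0.528 CPM in control and 23.6, 12.8 and 3.57 CPM in bleomycin libraries (log2 fold change 4.71 ± 0.67, adjusted p = 6.5e-04). Acute-phase genes had 7 of 11 higher and 3 lower. Saa3, a serum amyloid, went from 0.924 ± 0.0596 to 89.6 ± 9.53 CPM and Orm1, orosomucoid, from 0.858 ± 0.102 to 17.7 ± 5.94 CPM. In the insulin-like growth factor axis 7 of 15 were higher and 2 lower. Igf1 rose from 12 ± 3.11 to 40.5 ± 2.7 CPM, Pappa, a protease that frees it from binding proteins, from 0.712 ± 0.231 to 31.1 ± 6.31 CPM, and the binding protein Igfbp6 fell from 397 ± 64.1 to 99.3 ± 7.51 CPM. EGF receptor ligands and receptors (1 lower, against 2 in 3 of the other alternatives), IL-6 family cytokines and receptors (4 lower, against 2 without bleomycin 1, bleomycin 2 or control 1 and 2 in the fit of all 9 libraries), acute-phase proteins (3 lower, against 1 without bleomycin 2 and 1 in the fit of all 9 libraries), IGF axis (7 higher, against 4 by limma on log2(FPKM + 1), no filter) and IGF axis (2 lower, against 1 in the fit of all 9 libraries) had counts that moved over 1.5 times. Ereg (7.06 without bleomycin replicate 1, 7.18 without control replicate 2, 8.42 without control replicate 3), Areg (3.30 without bleomycin replicate 1) and Il11 (4.01 without bleomycin replicate 1) moved over 1.5 times in fold, given as log2, without the library named.

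Developmental pathways behaved differently from one another. Of 28 Wnt genes 10 were higher and 11 lower. Wnt10a was at 0.142, 0.117 and 0.0695 CPM in control and 3.75, 6.18 and 7.42 CPM in bleomycin libraries (log2 fold change 5.71 ± 0.41, adjusted p = 1.9e-05), and Sfrp1, a secreted Wnt antagonist, rose from 21.9 ± 2.11 to 220.3 ± 2.68 CPM. Axin2, a feedback target that reads canonical Wnt activity, fell (log2 fold change -1.49 ± 0.22, adjusted p = 7.8e-04), from 31.5 ± 6.26 to 11.2 ± 2.64 CPM. Wif1, another antagonist, fell from 6.23 ± 0.0752 to 1.17 ± 0.185 CPM. Notch genes fell in 11 of 15 cases and rose in 2 (median -0.78). Dll4, the endothelial ligand, was at 126, 165 and 133 CPM in control and 41, 38.5 and 39.4 CPM in bleomycin libraries (log2 fold change -1.84 ± 0.13, adjusted p = 2.2e-05), and the target Hey1 fell from 129 ± 11.5 to 38.4 ± 3.14 CPM. In the Hedgehog pathway 7 of 13 were lower and 1 higher, with Hhip, a ligand-binding inhibitor, from 32.6 ± 5.61 to 7.46 ± 0.857 CPM and the receptor and target Ptch1 from 70.2 ± 2.14 to 25.8 ± 3.85 CPM. BMP genes had 6 of 22 higher and 10 lower. The antagonists Grem1 (from 0.846 ± 0.178 to 30.4 ± 1.99 CPM) and Nog (from 0.431 ± 0.255 to 9.14 ± 1.19 CPM) rose. The ligand Bmp6 (from 281 ± 35.1 to 63.9 ± 1.89 CPM), the endothelial receptor Acvrl1 (from 941 ± 159 to 451 ± 107 CPM) and the feedback inhibitor Smad6 (from 303 ± 32.3 to 126 ± 7.38 CPM) fell. Notch pathway (2 higher, against 1 without bleomycin 1, bleomycin 2, control 1, control 2 or control 3 and 1 in 6 of the other alternatives), Hedgehog pathway (7 lower, against 4 without bleomycin 2) and BMP pathway (6 higher, against 3 without bleomycin 2 or control 1 and 3 by limma on log2(FPKM + 1), no filter) had counts that moved over 1.5 times.

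YAP and TAZ carry mechanical signals into the nucleus. Of 14 of their targets 7 were higher and 2 lower, led by Ccn2 (from 169 ± 10.8 to 1479 ± 21.4 CPM) and Ccn1 (from 119 ± 16.9 to 597 ± 22.4 CPM), whereas Amotl2 and Ajuba did not pass. Among 14 genes of lysophosphatidic acid and sphingosine phosphate signalling, lipids that act on fibroblasts and vessels, 6 were higher and 4 lower. The receptor Lpar1 rose from 21.3 ± 6.19 to 42 ± 1.26 CPM and the kinase Sphk1 from 56.2 ± 7.03 to 224 ± 66.4 CPM, and Enpp2, the autotaxin that makes lysophosphatidic acid, fell from 77.3 ± 3.23 to 34.7 ± 2.49 CPM. YAP and TAZ targets (2 lower, against 1 without bleomycin 2) had a count that moved over 1.5 times. Amotl2 (in 4 of the other alternatives, at log2 fold changes of -0.32 to -0.30, adjusted p = 0.0082 to 0.015) and Ajuba (by DESeq2 at a log2 fold change of 0.40, adjusted p = 0.037, without control 2 at a log2 fold change of 0.56, adjusted p = 0.0019), not called above, passed the threshold in those alternatives.

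Both kinds of alveolar capillary cell lost marker transcripts. Aerocytes, the large cells of gas exchange, had 10 of 12 markers lower and 1 higher (median -1.31), and general capillary cells, their progenitors, 8 of 12 lower and 1 higher (median -1.06). Car4, a carbonic anhydrase on aerocytes, was at 195, 228 and 224 CPM in control and 64.9, 56.2 and 54.8 CPM in bleomycin libraries (log2 fold change -1.88 ± 0.13, adjusted p = 1.4e-05). Aplnr, the apelin receptor of general capillary cells, was at 78.9, 120.3 and 89.9 CPM in control and 11.2, 9.31 and 6.64 CPM in bleomycin libraries (log2 fold change -3.41 ± 0.24, adjusted p = 1.7e-05). The ligand Apln, made by aerocytes, fell too (from 61 ± 11.2 to 18.7 ± 1.26 CPM). In each list 1 gene rose, Sirpa, which macrophages also carry and which was named for being alone, and Gpihbp1, the anchor of lipoprotein lipase (from 188 ± 26.6 to 358 ± 1.82 CPM). Endothelial markers as such were not all lower, since the tight junction gene Cldn5 was at 666 to 836 CPM in control and 486 to 829 CPM in bleomycin libraries. Lymphatic markers had 5 of 12 higher and 1 lower. Among 24 angiogenic and PDGF genes 5 were higher and 11 lower. Pdgfc, a fibroblast mitogen, rose from 2.08 ± 0.545 to 22.4 ± 1.08 CPM and Pgf from 6.57 ± 0.827 to 41.2 ± 1.1 CPM, Vegfa was not called (log2 fold change 0.00 ± 0.13), and the receptor Kdr fell from 432 ± 63.5 to 121 ± 12.7 CPM. Of 25 vascular tone genes 5 were higher and 9 lower. Ednrb, an endothelin receptor, fell from 94.2 ± 4.47 to 21.5 ± 4.68 CPM and Gucy1a1, a nitric oxide receptor subunit, from 149.7 ± 14.5 to 47.1 ± 10.6 CPM, while Edn1, the endothelin, rose from 24 ± 1.67 to 57.3 ± 4.0 CPM. Lymphatic endothelium (5 higher, against 3 in 2 of the other alternatives), lymphatic endothelium (1 lower, against 2 in 2 of the other alternatives), angiogenic and PDGF factors (5 higher, against 3 without bleomycin 2 or control 3 and 3 in the fit of all 9 libraries) and vascular tone (5 higher, against 3 in 2 of the other alternatives) had counts that moved over 1.5 times.

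Genes of clotting and clot removal rose for the most part. Of 22 coagulation and fibrinolysis genes 15 were higher and 2 lower (median 1.55). F3, the tissue factor that starts coagulation, was at 48.4, 39.9 and 48.5 CPM in control and 419.8, 320.2 and 231 CPM in bleomycin libraries (log2 fold change 2.83 ± 0.22, adjusted p = 2.6e-05). F13a1, which cross-links fibrin and marks macrophages, rose from 21.8 ± 4.28 to 142 ± 6.86 CPM and the urokinase receptor Plaur from 50.4 ± 7.77 to 244 ± 113 CPM. The 2 that fell were Thbd, the endothelial thrombomodulin, at 1076, 1032 and 998 CPM in control and 219, 247 and 285 CPM in bleomycin libraries (log2 fold change -2.05 ± 0.14, adjusted p = 1.4e-05), and Proc, the protein C that it helps to activate. Serpins at large had 23 of 35 genes higher and 5 lower (median 1.62), with Serpina3n from 167 ± 11.8 to 1824 ± 50.7 CPM, and S100 proteins 8 of 11 higher and 0 lower, with S100a4 from 13 ± 3.25 to 122 ± 8.07 CPM. Eicosanoids are lipid mediators made from arachidonic acid. Of 25 of their enzymes and receptors 12 were higher and 2 lower. Alox5ap, which feeds leukotriene synthesis, was at 40.4, 47 and 39.7 CPM in control and 123, 123 and 122 CPM in bleomycin libraries (log2 fold change 1.53 ± 0.12, adjusted p = 2.6e-05). Tbxas1, the thromboxane synthase, rose from 7.9 ± 1.68 to 28.2 ± 1.45 CPM and Ptges from 34.4 ± 8.03 to 96.7 ± 26 CPM, and Hpgd, which inactivates prostaglandins, fell from 592 ± 207 to 149 ± 31.6 CPM. Coagulation and fibrinolysis (2 lower, against 1 without bleomycin 1, bleomycin 3, control 2 or control 3 and 1 in 3 of the other alternatives), serpins (23 higher, against 15 in 2 of the other alternatives), S100 proteins (0 lower, against 1 by limma on log2(FPKM + 1), no filter) and eicosanoid enzymes and receptors (2 lower, against 4 by limma on log2(FPKM + 1)) had counts that moved over 1.5 times. Proc (in 4 of 15 alternatives, adjusted p up to 0.07, among them without bleomycin 1, bleomycin 3, control 2, control 3) missed the threshold in those alternatives.

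In the mesenchyme, smooth muscle contractile genes were split, with 5 of 19 higher and 8 lower. Tagln rose from 276 ± 43.5 to 407 ± 10.1 CPM, and Myh11 (from 259.9 ± 33.5 to 136 ± 40 CPM) and Cnn1 (from 129.9 ± 22.7 to 65.2 ± 19 CPM), which mark mature smooth muscle, fell. Pericyte genes had 4 of 13 higher and 5 lower, with Rgs5 from 7.73 ± 3.23 to 46.5 ± 4.4 CPM and Cox4i2 from 67.2 ± 12 to 40.2 ± 3.91 CPM. Of 11 genes of the mesothelium, the lining of the pleura, 2 were higher and 7 lower. Msln, the mesothelin, rose from 115 ± 36.6 to 588 ± 49.3 CPM although Upk3b (from 134 ± 40.2 to 57.7 ± 8.23 CPM) and Lrrn4 (from 35.1 ± 6.98 to 21.7 ± 2.7 CPM) fell. Of 10 transcription factors linked to epithelial-mesenchymal transition 4 were higher and 1 lower. Twist1 was at 0.268, 0.176 and 0.334 CPM in control and 1.89, 1.39 and 2.36 CPM in bleomycin libraries (log2 fold change 2.85 ± 0.40, adjusted p = 6.0e-04) and Prrx1, a fibroblast regulator, rose from 9.23 ± 1.95 to 30.3 ± 4.08 CPM. Smooth muscle contractile genes (5 higher, against 3 without bleomycin 1, bleomycin 2 or control 1 and 1 to 2 in 2 of the other alternatives), pericyte genes (5 lower, against 3 without bleomycin 2) and EMT transcription factors (1 lower, against 0 without bleomycin 1, bleomycin 2, control 1 or control 3 and 0 in 4 of the other alternatives) had counts that moved over 1.5 times. Tagln (in 1 of 18 alternatives, adjusted p up to 0.077) missed the threshold in those alternatives.

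Genes known from bone rose in 16 of 20 tested cases and fell in 0 (median 1.87). Of the 24 listed genes, Ibsp, Mepe, Bglap and Sp7 did not pass the count filter. The list mixes macrophage and osteoclast proteases with mineral genes. Fgf23, the phosphate hormone of osteocytes (ENSMUSG00000000182, chromosome 6 from 127049865 to 127058371 in the files' coordinates), was without a count in control, had 11.6, 5.86 and 1.46 CPM in the bleomycin libraries and was at least 421-fold higher by the same floor, or 247-fold without bleomycin 1. Dmp1, a bone matrix gene that restrains Fgf23 in osteocytes, passed as well, next to Spp1 on the chromosome. Runx2, the osteoblast factor, rose from 3.98 ± 0.587 to 12.5 ± 1.11 CPM and Mmp13, a collagenase, from 0.751 ± 0.273 to 5.23 ± 1.78 CPM. Ocstamp, of osteoclast fusion, rose by 2.05 ± 0.46 on the log2 scale, whereas Dcstamp (0.58 ± 0.54) and Mmp9 (0.45 ± 0.41) did not pass. Dmp1 (5.35 without control replicate 1, 3.73 without control replicate 3) moved over 1.5 times in fold, given as log2, without the library named.

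Transcription factors of lung development were lower in 19 of 34 cases and higher in 3. Sox18, a vessel factor, fell from 269 ± 34.8 to 53.6 ± 22.5 CPM, Etv5, of type 2 cells, from 142 ± 20.8 to 58.8 ± 1.18 CPM, Sox2, of the airway, from 19.2 ± 0.944 to 4.87 ± 1.04 CPM and Nkx2-1, the lung identity factor, from 191 ± 23.3 to 115 ± 2.7 CPM. The 3 that rose were Etv4, Sox9, a progenitor and cartilage factor (from 0.985 ± 0.0941 to 3.38 ± 1.96 CPM), and Foxm1, of dividing cells (from 4.19 ± 1.31 to 23.7 ± 1.96 CPM). Etv4 and Etv5, relatives that respond to the same growth signals, therefore moved in opposite directions. Circadian clock genes had 4 of 19 higher and 4 lower, shares close to those of all genes. Nfil3 (from 14.2 ± 5.9 to 93.3 ± 38.8 CPM) and Bhlhe40 (from 64.1 ± 17.4 to 338 ± 119 CPM), repressors of clock output, rose and Nr1d1 fell from 296 ± 159.9 to 67.3 ± 6.97 CPM, and the hour of collection is not stated. Among Krueppel-like and growth-arrest factors 5 of 16 were higher and 5 lower. Fkbp5, a glucocorticoid-induced chaperone, rose from 55.6 ± 12.1 to 367 ± 31.6 CPM and Zbtb16, induced by the same hormone, fell from 73.6 ± 9.24 to 28.9 ± 5.25 CPM, while Tsc22d3, a further target, was not called (log2 fold change -0.07 ± 0.16). Circadian clock (4 higher, against 2 in the fit of all 9 libraries), circadian clock (4 lower, against 1 without bleomycin 2, 2 without bleomycin 3 and 2 by limma on log2(FPKM + 1), no filter) and KLF and growth-arrest factors (5 lower, against 3 without bleomycin 2 and 3 in the fit of all 9 libraries) had counts that moved over 1.5 times. Sox9 (in 1 of 16 alternatives, adjusted p up to 0.094) missed the threshold in those alternatives.

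Among immune genes, several chemokines and phagocyte receptors rose. Most tested genes of dendritic cells, of natural killer cells and of the mast cell, basophil and eosinophil list fell. Chemokines had 12 of 30 higher and 4 lower, with Cxcl13, which draws B cells, from 3.74 ± 0.326 to 28.1 ± 5.84 CPM. Of 19 dendritic cell genes 13 were lower and 3 higher. Summed thymus and lymph node markers were 22.1 to 28.7 CPM in control and 3.41 to 4.21 CPM in bleomycin libraries. Their part in the falls of immune genes was not tested. Xcr1, of cross-presenting dendritic cells, was at 3.48, 2.09 and 2.24 CPM in control and 0.145, 0.416 and 0.196 CPM in bleomycin libraries (log2 fold change -3.35 ± 0.45, adjusted p = 5.1e-04), and Siglech, of plasmacytoid cells, fell from 1.1 ± 0.0896 to 0.0793 ± 0.0904 CPM. Mast cell, basophil and eosinophil genes had 8 of 11 lower and 0 higher. Of the 16 listed, Tpsab1, Fcer1a, Ms4a2, Epx and Ccr3 were not tested. Mcpt8, of basophils, went from 0.441 ± 0.112 to 0.0421 ± 0.0365 CPM, a low level in both groups. Il33, the alarmin of epithelium that starts type 2 responses, was at 72.6, 57.3 and 54.2 CPM in control and 26.6, 17.5 and 11.9 CPM in bleomycin libraries (log2 fold change -1.72 ± 0.27, adjusted p = 0.0011). Of 17 tested genes of type 2 immunity and alternative activation 9 were higher and 2 lower. Retnla (from 73.2 ± 13.7 to 654 ± 197 CPM) and Chil3 (from 221 ± 23 to 922 ± 131 CPM) were among the higher. That list has 22 genes, and Il13, Il5, Il25, Il13ra2 and Ear10 were not tested. Il1r2, the decoy receptor for interleukin-1, rose from 2.09 ± 0.623 to 49.6 ± 8.49 CPM and Il1b from 8.9 ± 1.16 to 41 ± 4.31 CPM. Mast cell, basophil and eosinophil genes (8 lower, against 5 in 3 of the other alternatives) had a count that moved over 1.5 times. Siglech (-5.09 without bleomycin replicate 1) moved over 1.5 times in fold, given as log2, without the library named.

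Complement genes had 11 of 22 higher and 5 lower. Cfb, of the alternative pathway, rose from 57.1 ± 11.1 to 213 ± 18.1 CPM and the receptor C3ar1 from 5.55 ± 1.13 to 47.3 ± 5.09 CPM, while C7, of the lytic complex and of fibroblasts, fell from 281 ± 51.6 to 95.6 ± 25.5 CPM. Cfd, a fat cell protease that also belongs to the adipocyte markers, fell from 119 ± 25.3 to 11 ± 9.18 CPM. Antibody receptors had 5 of 12 higher and 6 lower. The phagocyte receptors Fcgr3 (from 27.7 ± 5.44 to 189.8 ± 29.8 CPM) and Fcgr4 (from 4.8 ± 0.227 to 23.5 ± 3.06 CPM) rose and Fcer2a and Fcmr, of B cells, fell (log2 fold changes -2.76 ± 0.30 and -4.19 ± 0.27), with summed B cell markers of 128 to 177 CPM in control and 15.6 to 17.2 CPM in bleomycin libraries. Checkpoint and regulatory T cell genes had 8 of 18 higher and 0 lower, in libraries whose summed T cell markers were 81.9 to 91.7 CPM in control and 27.9 to 31.2 CPM in bleomycin libraries. Pdcd1, the PD-1 receptor, was at 0.063, 0.60 and 0.32 CPM in control and 4.46, 3.13 and 2.15 CPM in bleomycin libraries (log2 fold change 3.29 ± 0.62, adjusted p = 0.003), and Tnfrsf9, a costimulatory receptor, went from 1.8 ± 0.377 to 12 ± 4.4 CPM. Foxp3, which defines regulatory T cells, did not pass (log2 fold change 1.51 ± 0.73, adjusted p = 0.13), nor did the ligand Cd274 (log2 fold change 0.07 ± 0.27). The log2 fold change of Foxp3 was 0.56 without bleomycin 1 and 2.15 without control 1. Killer cell lectin-like receptors, carried by natural killer cells, had 12 of 17 lower and 0 higher (median -2.54), with Klre1 from 1.45 ± 0.463 to 0.0215 ± 0.0373 CPM. TNF receptors had 11 of 20 higher and 4 lower, led by Tnfrsf12a, the TWEAK receptor (from 25.3 ± 5.3 to 288 ± 83.9 CPM), and among the ligands Tnfsf10, TRAIL, fell from 106 ± 27.8 to 12.8 ± 3.68 CPM. Regulatory T cell and checkpoint genes (0 lower, against 1 without control 2) and killer cell lectin-like receptors (12 lower, against 5 in 3 of the other alternatives) had counts that moved over 1.5 times. Cfd (-4.21 without bleomycin replicate 3), Pdcd1 (4.04 without control replicate 2) and Klre1 (no count left in bleomycin without bleomycin replicate 1) moved over 1.5 times in fold, given as log2, without the library named. Foxp3 (with the replicate block at a log2 fold change of 1.29, adjusted p = 0.018, without bleomycin 3 at a log2 fold change of 1.98, adjusted p = 0.028), not called above, passed the threshold in those alternatives.

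Changed genes also lay side by side. A run was counted where at least 4 neighbouring tested genes were all called in 1 direction with at least 2-fold changes. There were 41 runs with 193 genes, 16 of the runs higher and 25 lower. Of all 19902 genes tested, 1988 were called at least 2-fold higher and 2488 at least 2-fold lower. How many runs would form from these shares alone was not tested. The longest held 7 lower genes of the Klra cluster of natural killer receptors, on chromosome 6 from 130020694 to 130363837 in the files' coordinates, with Klra8 from 1.87 ± 0.787 to 0.0565 ± 0.0979 CPM. Another held 6 higher Serpina3 genes on chromosome 12 from 104214121 to 104380588, among them Serpina3n at 159, 181 and 162 CPM in control and 1871, 1769.9 and 1830.5 CPM in bleomycin libraries and Serpina3m (from 6.57 ± 0.114 to 92 ± 2.97 CPM). On chromosome 12 from 113120041 to 113294143, 6 higher genes took in the antibody constant regions Igha (from 51.2 ± 16 to 128 ± 19.7 CPM), Ighg2b (from 1.5 ± 0.404 to 5.96 ± 4.16 CPM) and Ighg1. MHC class II genes formed a lower run of 6 on chromosome 17 from 34430286 to 34560386, with H2-Ab1 from 519 ± 52.5 to 188 ± 31.7 CPM. The run around Spp1 on chromosome 5 from 104226977 to 104588916 held Sparcl1, a matricellular protein (from 946 ± 137 to 2069.8 ± 127 CPM), and Spp1 (from 72 ± 23.3 to 4787 ± 378 CPM), with Dspp and Dmp1 between them at low level. How reads were assigned by strand is not stated, so the low members of this run are uncertain. Paired immunoglobulin-like receptors gave a higher run of 6 on chromosome 7 from 3714408 to 3901119, with the inhibitory Pirb from 18.5 ± 1.65 to 68.5 ± 4.46 CPM. On chromosome 8 from 93783356 to 94695838 a lower run of 6 held the Ces1 genes and Gnao1. The Klra, Serpina3, Pira and Ces1 genes are near-identical within their clusters, and their separate counts are uncertain. Klra8 (no count left in bleomycin without bleomycin replicate 2) and Ighg2b (1.29 without bleomycin replicate 1) moved over 1.5 times in fold, given as log2, without the library named. Ighg2b (in 1 of 17 alternatives, adjusted p up to 0.11) and Ighg1 (in 1 of 15 alternatives, adjusted p up to 0.077) missed the threshold in those alternatives.

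Some large families went down more often than up. Of 377 Zfp zinc finger genes 36 were higher and 95 lower (median -0.33). These shares were 9.55% and 25.2%, against 20.5% and 22.1% of all genes, so only the share of rises was far from that of all genes. Of 54 protocadherins 3 were higher (5.56%) and 19 lower (35.2%). Tetraspanins, which organise membranes, had 4 of 19 higher and 12 lower, with Tspan7 from 991 ± 87 to 336 ± 20.7 CPM. Solute carriers had 49 of 275 higher (17.8%) and 73 lower (26.5%), shares near those of all genes. Hox genes did not go down more often, with 3 of 18 higher and 3 lower. By genomic span, the 3914 longest protein-coding genes (over 56.5 kb) had 19.2% higher and 27.3% lower, and the 3915 shortest (up to 9.76 kb) 24.9% and 24.1%. Zinc finger Zfp genes (36 higher, against 19 without bleomycin 2 and 23 by limma on log2(FPKM + 0.1)), zinc finger Zfp genes (95 lower, against 54 without bleomycin 2 and 147 without control 2), tetraspanins (4 higher, against 2 without bleomycin 1 or bleomycin 2 and 2 in 2 of the other alternatives), Hox genes (3 higher, against 1 in the fit of all 9 libraries) and Hox genes (3 lower, against 1 without bleomycin 1 or bleomycin 3) had counts that moved over 1.5 times.

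The 3 bleomycin libraries were not alike. Among 19857 tested genes with unequal values in the 3, bleomycin 2 lay between the others in 57.5%, bleomycin 1 in 19.6% and bleomycin 3 in 22.9%. In control, over 19829 genes, the corresponding shares were 39.8%, 19.4% and 40.8%. Of the 25 largest rises 19 were highest in bleomycin 1, and 17 of these 19 were lowest in bleomycin 3. Of all 19857 genes 39.9% were highest in bleomycin 1, and of the 25 largest falls 4 were. The genes that follow were picked for their wide or narrow spread over the bleomycin libraries. Il6 was at 14.6, 5.9 and 1.22 CPM in the bleomycin libraries, against 0, 0.0732 and 0.125 CPM in control. Fosl1, an AP-1 subunit, was at 13.6, 6.98 and 1.99 CPM in bleomycin libraries, Prss22, an epithelial protease, at 49.3, 20.8 and 4.27 CPM and Cxcl2, a neutrophil chemokine, at 8.68, 5.42 and 1.07 CPM. All 4 were highest in bleomycin 1 and lowest in bleomycin 3, as were the erythroid sum and Hmox1. The heart hormone Nppa (0.259, 8.66 and 12.1 CPM) and Cfd (1.83, 11 and 20.2 CPM) were highest in bleomycin 3 and lowest in bleomycin 1, as were the summed cardiac and adipocyte markers. All values of Il6, Fosl1, Prss22 and Cxcl2 in bleomycin libraries nevertheless lay above the control range. The narrowest spread was in genes such as Alox5ap, Xpnpep1 (118, 118 and 117 CPM in bleomycin against 66.1, 77.5 and 64.3 CPM in control) and Eml1, a microtubule protein (71.8, 72 and 71.9 against 102, 118 and 103 CPM). The part of blood, heart or fat tissue in this spread was not tested. Il6 (5.68 without bleomycin replicate 1, 7.50 without control replicate 3), Fosl1 (5.08 without bleomycin replicate 1), Prss22 (5.76 without bleomycin replicate 1), Cxcl2 (5.34 without bleomycin replicate 1, no count left in control without control replicate 2, 5.37 without control replicate 3) and Nppa (-3.57 without bleomycin replicate 3) moved over 1.5 times in fold, given as log2, without the library named. Il6 (in 1 of 18 alternatives, adjusted p up to 0.07), Cxcl2 (in 1 of 18 alternatives, adjusted p up to 0.051) and Nppa (in 5 of 17 alternatives, adjusted p up to 0.058, among them without bleomycin 2, control 1, control 2, control 3) missed the threshold in those alternatives.

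**Figure D5:**
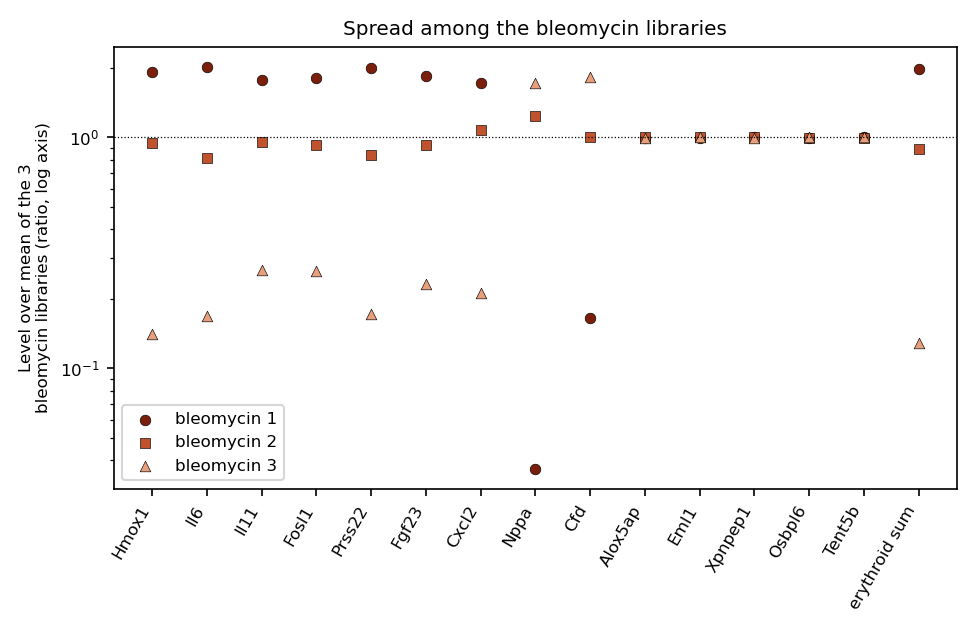
Level in each bleomycin library divided by the mean of the 3 (log axis) for 9 called genes with wide spread, 5 with narrow spread and the sum of 7 erythroid genes. Hmox1, Il6 and the erythroid sum are highest in bleomycin 1, Nppa and Cfd are highest in bleomycin 3, and the 5 genes from Alox5ap to Tent5b lie on 1.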

How the data were processed

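RNA of whole lung from 3 control and 3 bleomycin libraries was sequenced from poly(A)-selected, strand-marking libraries, per the labels' protocols. Per the submitters' processing notes the authors used fastp, StringTie and edgeR; no source used here gives the aligner, genome build, annotation or use of strand in counting. The deposited table holds raw gene counts, as whole numbers, and FPKM values for 32671 genes. The counts were filtered with filterByExpr (19902 genes left), scaled by TMM and tested with edgeR 4.0.16 (quasi-likelihood F test, 6 libraries, no covariate; R 4.3.3) with Benjamini-Hochberg adjustment. The SE is the absolute log2 fold change over the square root of F, and CPM uses the scaled library sizes. Deposited FPKM served only for limma 3.58.1, as log2(FPKM + 1) or log2(FPKM + 0.1) with a mean of at least 0.5. DESeq2 1.42.0, other scalings and filters, a minimum of 2-fold, all 9 libraries, a replicate block and leaving out each library or gene class were alternatives. In a simulation for this comparison with 19902 genes, 200 of them changed, edgeR recovered 61% of 2-fold and 95% of 4-fold changes, with 3 false calls. The share of genes changed there was far below the 42.5% called in the data, so these rates need not hold for the data.

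Gene members and the 61 lists and 42 families were chosen with earlier results of these data known. Named genes are key genes marked in each list, up to 6 called members per list with the largest change and at least 1 CPM, the 25 largest rises and 25 largest falls without overlap and at least 5 CPM, the 12 largest CPM gains and losses, members of the 6 longest runs, and the 10 called genes of widest and 10 of narrowest spread. Promoter windows (250 bases before to 50 after a start) came from RefSeq, GRCm38.p6, by symbol; coordinates of genes are those of the deposited table, whose build is not named, and the 2 were not mixed. Totals of 60074344 to 69404903 counts per library set the precision. Libraries of a group differed by more than sampling noise.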

Additional observations from a re-analysis of the deposited data

How the results depend on the processing

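Demanding a change of at least 2-fold in the test itself left 995 genes higher and 1149 lower, where 4075 and 4389 had been called; this threshold asks for more, so fewer pass. Leaving out 1 library gave 2850 to 4645 higher and 3170 to 4638 lower genes. DESeq2, other scalings and filters, all 9 libraries in 1 fit, FPKM with limma and the removal of immunoglobulin, haemoglobin and mitochondrial genes or of other-tissue genes kept both counts within 1.5 times. Removing other-tissue genes takes out only those genes, so it cannot show what such tissue adds to the rest. Scaling by library size gave 3457 higher and 4974 lower genes against 4075 and 4389. Across the groups, samples with the same replicate number correlated at 0.0236 to 0.0267 in their deviations from the group means. Those with different numbers correlated at -0.0306 to 0.0056, all below the former. The numbers were not taken as pairs, and a replicate block gave 3817 higher and 4118 lower genes. Of 858 genes that the naming rule gives, 731 were called, and 588 of these were called in every alternative except the 2-fold minimum; none changed direction. Genes at few counts per library, such as Fgf23 and Il6, are limited by depth and by the spread of the bleomycin libraries. Near-identical copies and overlapping genes are uncertain.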
